A study of Mus musculus with 5 samples.

Results

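The skin barrier lipid genes described here are 10 genes whose products make, transport or oxidise the lipids of the cornified layer of the epidermis. They are listed by name (Alox12b, Aloxe3, Alox12, Alox8, Abca12, Cers3, Elovl4, Pnpla1, Cyp4f39 and Sdr9c7), and all 10 were found among 21631 protein-coding genes of the mouse autosomes and X in RefSeq's annotation of GRCm38.p6, the assembly also called mm10. Chromatin immunoprecipitation and sequencing had been done on basal progenitors of the epidermis of control mice (back skin, postnatal day 71), with 2 libraries for H2AK119ub, 2 libraries for H3K27me3 and 1 input library. All of these libraries came from mice with the reporters K14-RFP, red fluorescence from a basal keratin promoter, and K10-H2B-GFP, green fluorescence from a suprabasal keratin promoter. Sorting kept Sca1+ cells with high RFP and without GFP. The sex and number of mice were not given in the sources used here.

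The values are positions of called regions, stretches of chromosome where the authors' caller found a mark, in a single list per mark. The H2AK119ub list held 33155 regions and the H3K27me3 list 15102. A called region has no height and no replicate, so read depth and the spread between the 2 libraries of a mark are unknown, no result below carries an error, and none was tested. Where no region was called, the mark may still be present at a level the caller did not pick up.

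H2AK119ub is histone H2A with a single ubiquitin, set by Polycomb repressive complex 1, and H3K27me3 is histone H3 with a trimethylated lysine, set by Polycomb repressive complex 2. Both are known for marking silent developmental genes, although H2AK119ub is also found at expressed genes. The barrier genes act in a chain. ELOVL4 lengthens fatty acids to ultra-long chains, the CYP4F39 enzyme (the mouse counterpart of human CYP4F22) hydroxylates their far end, CERS3 joins them to a sphingoid base and PNPLA1 adds linoleate to give acylceramide. ABCA12 loads lipid into lamellar granules, ALOX12B and ALOXE3 oxidise the linoleate, and SDR9C7 oxidises the product further so that ceramide can be bound to the cornified envelope. Loss of several of these functions in humans is known to cause ichthyosis. ALOX12, the platelet-type 12-lipoxygenase, and ALOX8, an 8-lipoxygenase of mouse skin, are related lipoxygenases. The chain is used mainly in suprabasal layers, above the sorted cells.

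The genes fell into 3 kinds. The 4 lipoxygenase genes and Elovl4 had both marks over the gene body, Cers3, Pnpla1, Cyp4f39 and Sdr9c7 had H2AK119ub alone there, and Abca12 had neither. Over the gene body plus 20 kb on each side, 9 of the 10 genes had an H2AK119ub region, against 71.8% of all protein-coding genes. Over the same window 7 of the 10 had an H3K27me3 region, against 44.5% of all genes, and these 7 had both marks, against 40.3% of all genes. H2AK119ub alone was found at 2 genes, Cyp4f39 and Sdr9c7, against 31.5% of all genes. Neither mark was found in the window of Abca12 alone, against 24.1% of all genes, and H3K27me3 alone was found at 0 of the 10, against 4.12%.

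Within the gene body itself, 9 of the 10 genes had H2AK119ub (57.2% of all genes) and 5 had H3K27me3 (25.7% of all genes). These 5 had both marks (22.5% of all genes), and 4 had H2AK119ub alone (34.7% of all genes). Abca12 had neither mark (39.6% of all genes), and 0 genes had H3K27me3 alone (3.21% of all genes). The windows of Aloxe3, Alox12b and Alox8 overlap and share regions, so the 10 genes stand for 8 separate loci. By locus, H2AK119ub was over a gene body at 7 of 8 and H3K27me3 at 3 of 8. The H3K27me3 count at gene bodies therefore rests on 3 places, the pair of lipoxygenase loci and Elovl4.

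**Figure D1:**
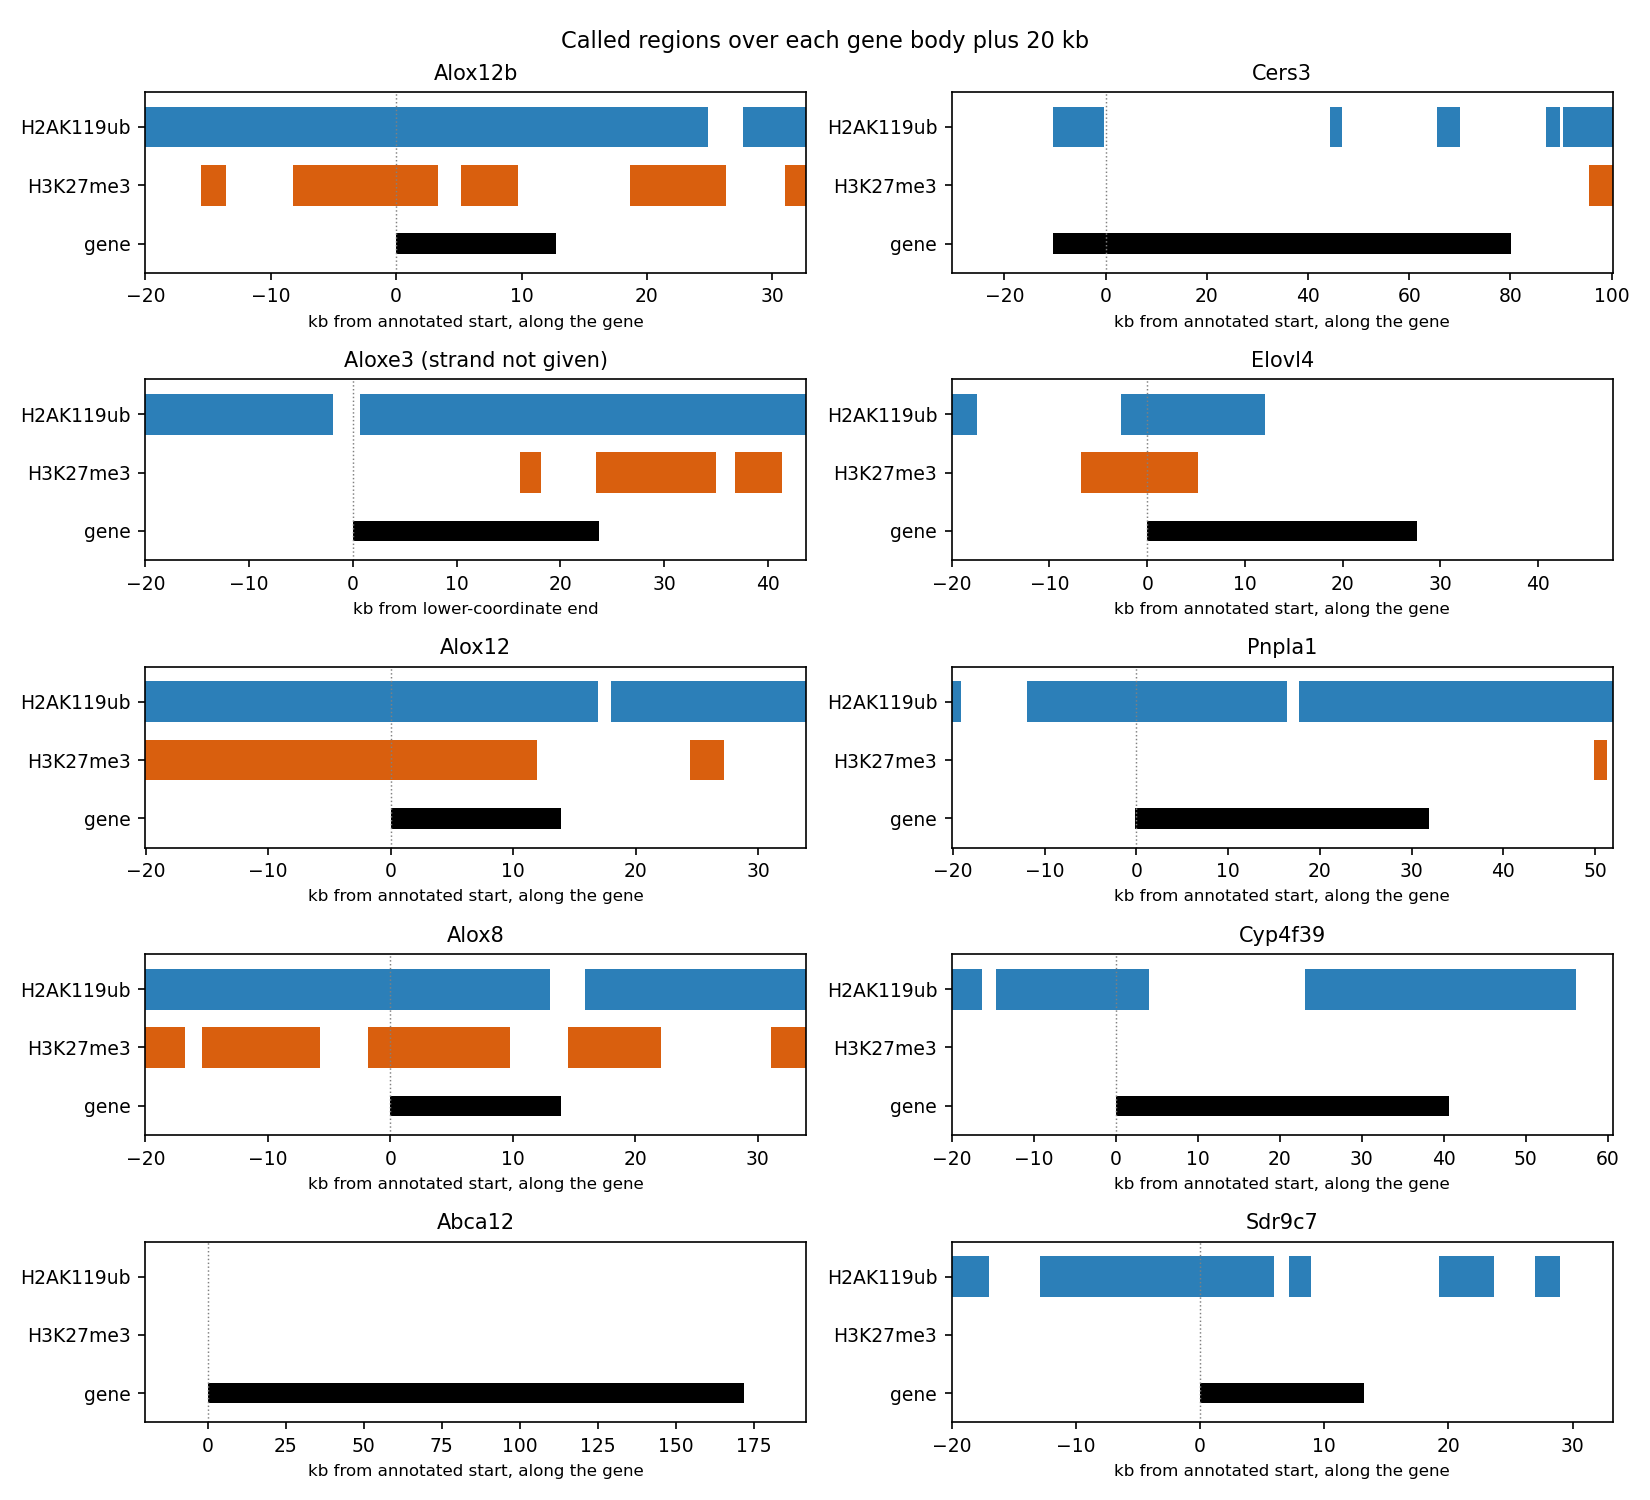
Called regions of H2AK119ub (blue) and H3K27me3 (orange) over each gene body (black) plus 20 kb, with distance in kb from the annotated start in the direction of transcription on the horizontal axis (from the lower-coordinate end for Aloxe3, whose strand was not in the sequence table). H3K27me3 meets the body of the 4 lipoxygenase genes and Elovl4, and the Abca12 panel holds no region.

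The lipoxygenase genes had the highest window coverage by each mark, with Pnpla1 next for H2AK119ub. H2AK119ub covered 98.1% of the window of Alox12, 95.9% at Aloxe3, 94.8% at Alox8, 94.7% at Alox12b and 88.3% at Pnpla1. Lower shares were found at Cyp4f39 (68.7%), Sdr9c7 (56.4%), Elovl4 (25.6%) and Cers3 (22.4%), and Abca12 was at 0%. The median over the 10 genes was 78.5%, against a median of 22.1% over all genes, whose quartiles were 0% and 66.2%. Of the 10 genes 6 thus lay above the upper quartile of all genes, while Elovl4 and Cers3 were near the median. The windows of Aloxe3, Alox12b and Alox8 overlap and share regions, so these are not separate cases in the count or the median.

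H3K27me3 covered less. It took up 64.7% of the window of Alox8, 64.4% at Alox12, 52.1% at Alox12b and 28.6% at Aloxe3. It took up 17.7% at Elovl4, 3.50% at Cers3 and 2.05% at Pnpla1, and 0% at Abca12, Cyp4f39 and Sdr9c7. The median over the 10 genes was 10.6%, against 0% over all genes with an upper quartile of 13.6%. The 4 lipoxygenase genes and Elovl4 lay above that quartile and the other 5 below it, with the same overlap of windows among Aloxe3, Alox12b and Alox8. The H2AK119ub list is the longer, so coverages by the 2 marks do not compare their amounts.

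**Figure D2:**
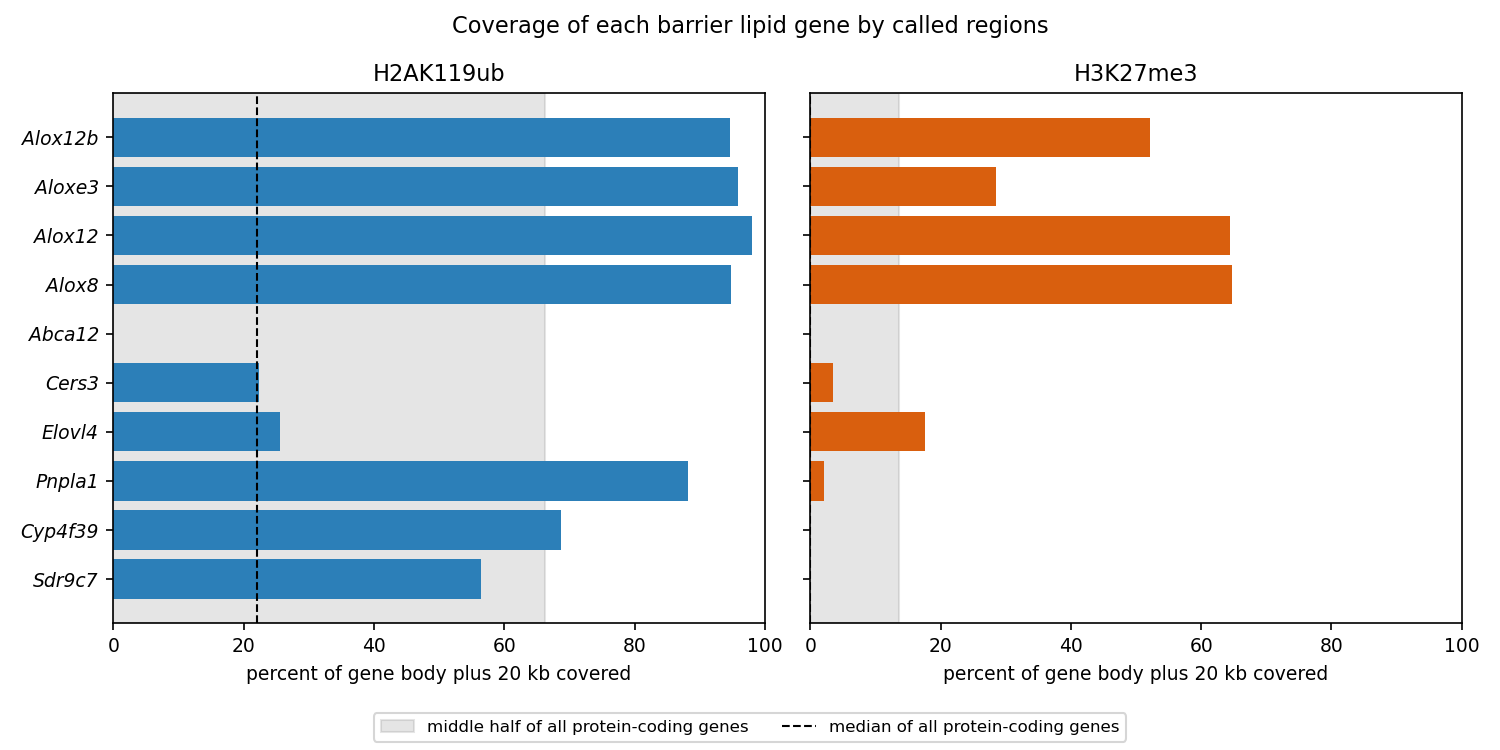
Percent of each gene body plus 20 kb covered by called regions of H2AK119ub (left) and H3K27me3 (right), with bars for the 10 barrier lipid genes, grey for the range between the quartiles of all protein-coding genes and a dashed line for their median (22.1% and 0%). The 4 lipoxygenase genes exceed 94% for H2AK119ub and run from 28.6% to 64.7% for H3K27me3.

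The lipoxygenase locus with Aloxe3, Alox12b and Alox8 lies on chromosome 11. Aloxe3 occupies chr11:69125417-69149115, Alox12b chr11:69157072-69169791 and Alox8 chr11:69183885-69197843, with 7.96 kb between Aloxe3 and Alox12b and 14.1 kb between Alox12b and Alox8. Nearly the whole of the 3 bodies lay in a pair of H2AK119ub regions of similar width. The first, 55.9 kb from 69126090 to 69181969, held Alox12b entirely and 97.2% of Aloxe3. The second, 55.7 kb from 69184779 to 69240468, began 2.81 kb further on and held 93.6% of Alox8. Each was wider than 96.0% of the H2AK119ub list.

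H3K27me3 at this locus was broken into shorter regions. Over Alox12b, which encodes the 12R-lipoxygenase that begins linoleate oxidation, an 11.6 kb region from 69148837 to 69160434 reached from 8.24 kb before the annotated start to 3.36 kb after it. A second region of 4.57 kb, from 69162227 to 69166795, lay wholly inside Alox12b, so that 62.4% of the gene carried H3K27me3. The gap between them was 1.79 kb.

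Aloxe3, whose product acts on the hydroperoxide made by ALOX12B, had little H3K27me3. A 2.02 kb region lay inside it, from 69141494 to 69143515. The 11.6 kb region over the start of Alox12b overlapped the Alox12b-facing end of Aloxe3 by 0.279 kb, and together these made up 9.71% of the Aloxe3 body. The far part of Aloxe3, towards the neighbouring genes Hes7 and Per1, had H2AK119ub without H3K27me3, as had Hes7, a Notch-related repressor gene, and Per1, a clock gene.

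Alox8 had an 11.5 kb H3K27me3 region from 69188110 to 69199649 that covered 69.7% of its body. It ran from 1.81 kb before the annotated start to 9.73 kb after it and left the end of the gene free. A 7.61 kb H3K27me3 region filled part of the interval between Alox12b and Alox8, and its last part lay in the gap between the H2AK119ub regions, with 81.7% of its length inside H2AK119ub. Regions of 9.62 kb and 3.91 kb lay upstream of Alox8.

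**Figure D3:**
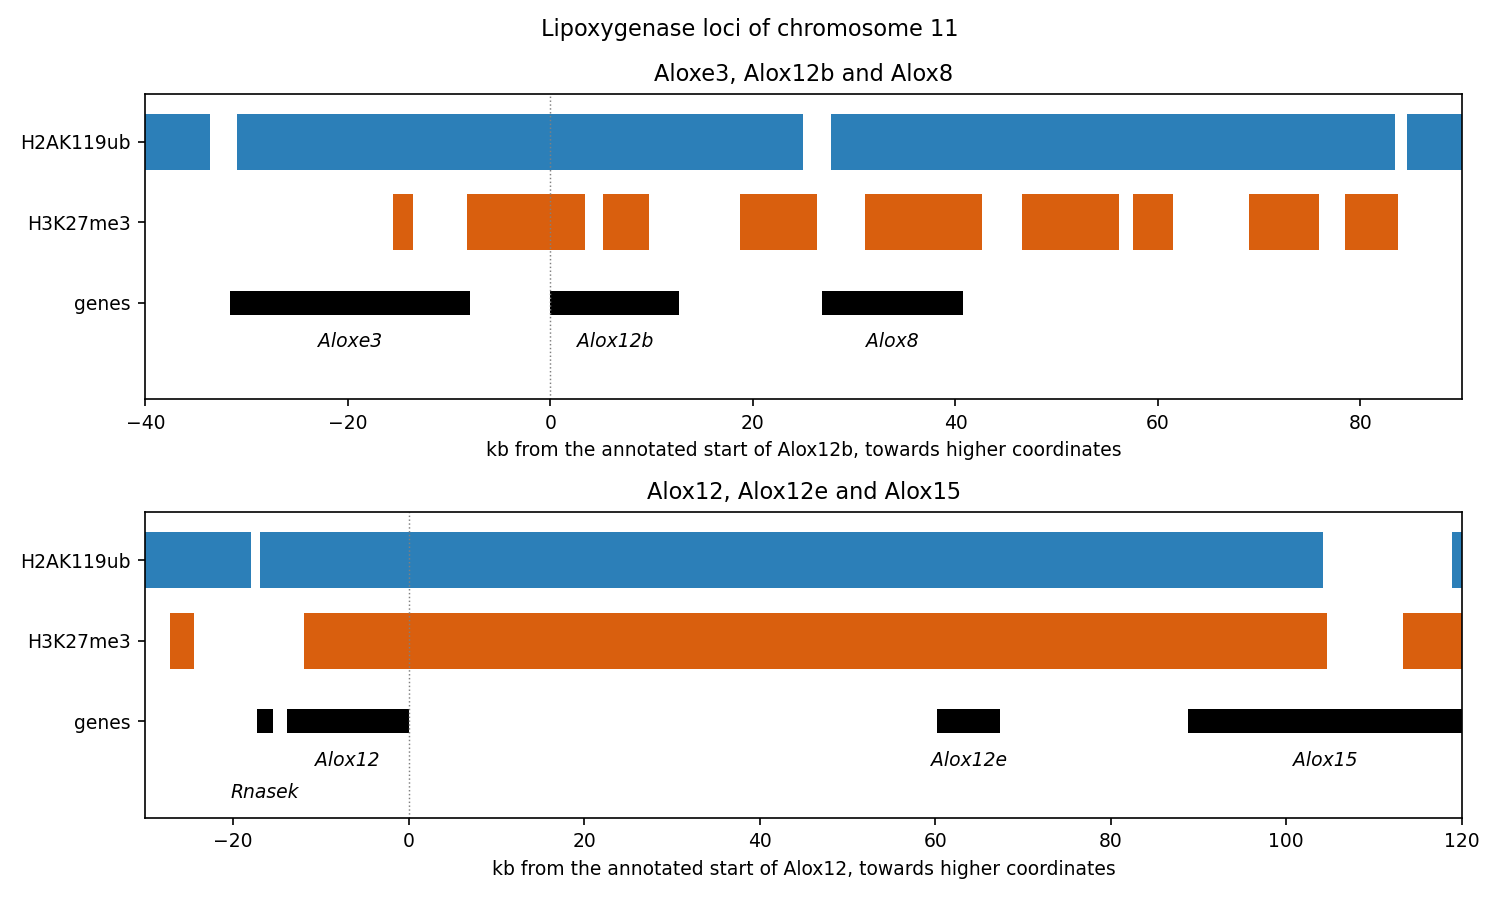
Called regions at the lipoxygenase loci of chromosome 11, with distance in kb towards higher coordinates from the annotated start of Alox12b (top) or Alox12 (bottom) on the horizontal axis, H2AK119ub in blue, H3K27me3 in orange and genes in black. H3K27me3 is split into short regions around Alox12b and Alox8 and forms a single 117 kb region from inside Alox12 to inside Alox15, a gene that continues past the right edge.

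Alox12 lies 1044 kb further along chromosome 11, at chr11:70241457-70255380, and each mark formed a single wide region over it. The H2AK119ub region was 121 kb wide, from 70238419 to 70359536, wider than 99.2% of regions in its list, and covered the whole gene. The H3K27me3 region was 117 kb wide, from 70243407 to 70359984, wider than 98.4% of its list, and covered 86.0% of the gene. The 2 regions ended 0.448 kb apart inside the gene Alox15 and 4.99 kb apart on the side of Alox12, where H3K27me3 stopped inside the gene and H2AK119ub continued over Rnasek, which encodes ribonuclease kappa.

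The same pair of regions held the lipoxygenase gene Alox12e, an epidermal 12-lipoxygenase gene, in full, and part of Alox15, the 12/15-lipoxygenase gene. The H2AK119ub region covered 33.2% of Alox15 and the H3K27me3 region 34.1%. With further regions of each list, H2AK119ub covered 44.8% of Alox15 and H3K27me3 59.0%. Alox12e and Alox15 are not among the 10. Of the 7 lipoxygenase genes examined, a family gathered after the values had been seen, 7 had both marks over the body. The share over all genes was 22.5%. Alox5, the leukotriene-forming member on chromosome 6, had 2.64 kb of H2AK119ub in a body of 51.1 kb and 4.16 kb of H3K27me3. The 7 genes are not separate cases, since 6 of them lie at the loci on chromosome 11, where neighbours share regions.

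Elovl4, at chr9:83778692-83806305 on the minus strand, was the only member outside chromosome 11 with H3K27me3 over its body. An 11.9 kb H3K27me3 region, from 83801128 to 83813063, ran from 6.76 kb before the start to 5.18 kb after it. A 14.7 kb H2AK119ub region, from 83794272 to 83808989, ran from 2.68 kb before the start to 12.03 kb after it. The marks overlapped over 7.86 kb around the start, with H3K27me3 reaching further upstream and H2AK119ub further into the gene. The later part of the Elovl4 body had neither mark, since H2AK119ub covered 43.6% and H3K27me3 18.8% of it.

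The other 4 marked genes, all of acylceramide synthesis and use, had H2AK119ub without H3K27me3 over the body. Pnpla1, at chr17:28858286-28890308, was covered to 95.8% by H2AK119ub regions of 28.4 kb and 41.7 kb that were 1.34 kb apart, and the first of them ran from 11.96 kb before the start to 16.4 kb after it. The H3K27me3 in its window was a single region of 1.47 kb in Bnip5, a neighbour under the same 41.7 kb H2AK119ub region, and began 18.0 kb beyond the end of Pnpla1. The H3K27me3 call in the Pnpla1 window thus lay in the neighbour.

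Cyp4f39, at chr17:32452697-32493320, had an 18.6 kb H2AK119ub region over its start, from 14.6 kb before it to 4.01 kb after it, and a 33.0 kb region over its later part that continued into Cyp4f17, another cytochrome P450 gene. Between them lay 19.1 kb of the gene without a region, so that 52.9% of the body was covered. Its nearest H3K27me3 region was 34.4 kb away from the body. Sdr9c7, at chr10:127898535-127911761, had an 18.8 kb H2AK119ub region from 12.9 kb before the start to 5.95 kb after it, which also reached Rdh7, a neighbouring retinol dehydrogenase gene. A further 1.79 kb region raised the covered share of the Sdr9c7 body to 58.6%, and the nearest H3K27me3 region was 173 kb away.

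Cers3, at chr7:66733118-66823692, had the smallest H2AK119ub share among the marked genes, 18.5% of a body of 90.6 kb. A 10.1 kb region from 66733034 to 66743138 covered the first part of the annotated span and stopped 0.366 kb before the start given in the promoter table, which lies inside that span. Regions of 2.20 kb and 4.55 kb stood alone further inside the gene, after a stretch of 44.8 kb without a region. The H3K27me3 region of its window, 7.49 kb wide, overlapped the neighbouring protease gene Adamts17 and began 15.4 kb beyond Cers3.

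Abca12, at chr1:71243090-71414910 on the minus strand, had no region of either mark in its window of 212 kb. It has the longest body of the 10 genes, at 172 kb. The nearest H2AK119ub region lay 39.5 kb from the gene, on the side of its start, and the nearest H3K27me3 region 235 kb away.

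At the annotated starts the kinds were the same. Within 1 kb of the start, 8 of the 9 members with an entry in the promoter table had H2AK119ub, against 50.9% of 17274 genes with an entry. H3K27me3 was within 1 kb of the start at 4 of the 9, against 21.6% of those genes. These 4, Alox12b, Alox12, Alox8 and Elovl4, had both marks there, against 18.2%, and Cers3, Pnpla1, Cyp4f39 and Sdr9c7 had H2AK119ub alone, against 32.8%. Aloxe3 has no entry. The start itself lay inside an H2AK119ub region at 7 of the 9 genes, all but Cers3 and Abca12.

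The promoter sequences of 5 genes are shown to set starts with both marks (Elovl4, Alox12b and Alox8) beside a start with H2AK119ub alone (Sdr9c7) and a start with neither (Abca12). Each runs 5′ to 3′ from 250 bases before to 50 bases after the start in RefSeq, build GRCm38.p6, and capitals mark CpG dinucleotides, the sites of DNA methylation whose dense clusters are known as places of Polycomb recruitment in mammals. Elovl4 lies at chr9:83806256-83806555 on the minus strand, Alox12b at chr11:69156822-69157121 on the plus strand, Alox8 at chr11:69197794-69198093 on the minus strand, Sdr9c7 at chr10:127898285-127898584 on the plus strand and Abca12 at chr1:71414861-71415160 on the minus strand.
Elovl4: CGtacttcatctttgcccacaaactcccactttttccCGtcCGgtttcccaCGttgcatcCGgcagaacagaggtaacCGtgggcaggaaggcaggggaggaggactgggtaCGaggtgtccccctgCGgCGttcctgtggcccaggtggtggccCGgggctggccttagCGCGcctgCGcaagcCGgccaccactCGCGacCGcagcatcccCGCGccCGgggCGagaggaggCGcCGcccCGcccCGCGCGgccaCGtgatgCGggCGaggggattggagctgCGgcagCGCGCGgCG
Alox12b: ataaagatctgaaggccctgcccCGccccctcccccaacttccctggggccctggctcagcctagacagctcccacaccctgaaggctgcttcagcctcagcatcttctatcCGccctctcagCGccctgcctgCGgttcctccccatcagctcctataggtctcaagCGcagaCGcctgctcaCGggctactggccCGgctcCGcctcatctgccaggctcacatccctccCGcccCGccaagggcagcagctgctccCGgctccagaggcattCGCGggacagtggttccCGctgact
Alox8: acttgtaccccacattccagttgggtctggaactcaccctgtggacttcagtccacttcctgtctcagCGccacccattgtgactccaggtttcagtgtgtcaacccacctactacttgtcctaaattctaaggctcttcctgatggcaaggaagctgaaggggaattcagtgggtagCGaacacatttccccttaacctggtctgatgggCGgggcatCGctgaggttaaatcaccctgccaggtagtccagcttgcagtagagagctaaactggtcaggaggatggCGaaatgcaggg
Sdr9c7: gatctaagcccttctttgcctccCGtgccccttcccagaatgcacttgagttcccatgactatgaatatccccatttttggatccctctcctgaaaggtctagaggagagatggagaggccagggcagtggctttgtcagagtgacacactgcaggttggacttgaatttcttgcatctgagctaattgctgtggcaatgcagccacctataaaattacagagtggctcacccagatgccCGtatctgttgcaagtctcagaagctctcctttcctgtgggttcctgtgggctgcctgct
Abca12: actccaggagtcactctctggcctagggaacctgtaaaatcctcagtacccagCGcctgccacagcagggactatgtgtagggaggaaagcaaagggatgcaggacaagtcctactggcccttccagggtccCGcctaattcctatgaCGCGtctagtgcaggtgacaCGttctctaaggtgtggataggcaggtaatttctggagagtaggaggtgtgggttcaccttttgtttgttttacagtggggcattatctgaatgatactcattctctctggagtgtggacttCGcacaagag

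CpG content differed widely among the starts with both marks. Elovl4 had 35 CpG, more than 90.8% of the 21045 promoters of protein-coding genes, and CpG was close to the number its base composition gives, with a ratio of observed to expected of 0.93. Alox12b had 15 CpG, Alox12 had 8 and Alox8 had 5, with ratios of 0.51, 0.35 and 0.24. For comparison, every promoter was classed by its gene, with marks at any annotated start counted, so some promoters of a class lack its marks themselves. The 4102 promoters of the 3137 genes with both marks had a median of 14 CpG, with quartiles of 6 and 24. Elovl4 thus lay above the upper quartile of this class, Alox12b near its median and Alox8 below its lower quartile.

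The 4 starts with H2AK119ub alone lay below the median CpG count of their class. Cyp4f39 had 11, Cers3 had 7, Pnpla1 had 6 and Sdr9c7 had 2. All promoters of genes with H2AK119ub alone at their starts had a median of 18 and quartiles of 7 and 28. Abca12 had 6, close to the median of 7 over promoters of genes with neither mark at any start. The Sdr9c7 start, inside an 18.8 kb H2AK119ub region, had the fewest CpG of the 9.

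**Figure D4:**
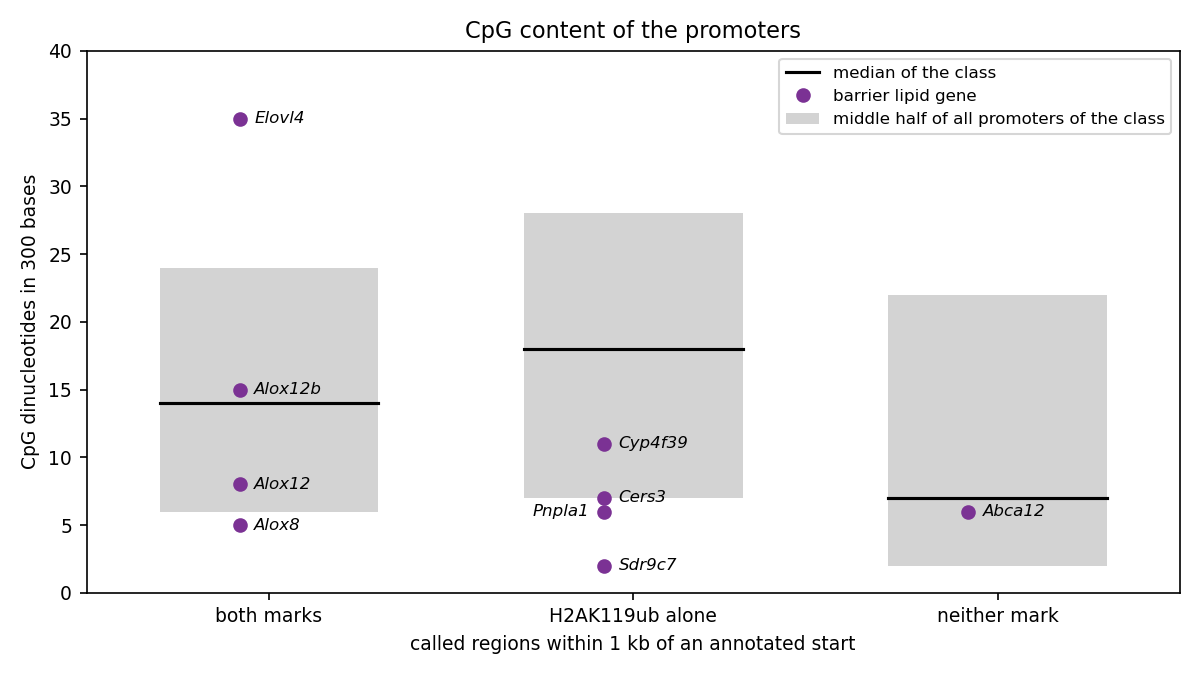
CpG dinucleotides in the 300 bases around each annotated start (vertical axis), by the marks within 1 kb of any annotated start of the gene. Points show the 9 barrier lipid genes that have an entry, grey bars the range between the quartiles of all promoters of genes in the class and lines its median. Elovl4 stands apart with 35 CpG, and the other 8 genes have 2 to 15.

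Of 5 short motifs searched on both strands of these promoters, GGGCGG was found at 4 of the 9 members and at 46.7% of all promoters. The count at the members was thus near the share over all promoters. The 4 were Alox12b, Alox12, Alox8 and Elovl4. These are also the 4 with H3K27me3 at the start, but Alox12b, Alox12 and Alox8 are all lipoxygenase genes of chromosome 11, and the match was not tested. Over all genes, classed as above, GGGCGG was found at 52.9% of promoters of genes with both marks and 59.9% with H2AK119ub alone. For genes with H3K27me3 alone the share was 29.5%, and for genes with neither mark 34.5%. CACCC was found at 6 of the 9 members (59.8% of all promoters), TATAAA at Sdr9c7 alone (12.7%), and TGANTCA (7.04%) and the nuclear receptor direct repeat with a spacer of 1 base (0.0475%) at 0 of the 9. The complement of CACCC can share its run of G with GGGCGG, and such matches were counted for both.

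Over the bodies of the 10 genes, every stretch of H3K27me3 lay within H2AK119ub. The bodies sum to 440 kb, of which H2AK119ub covered 151 kb (34.4%) and H3K27me3 37.1 kb (8.43%), and the overlap was the same 37.1 kb. The windows held 23 H2AK119ub and 12 H3K27me3 regions, each counted once. All 12 H3K27me3 regions met H2AK119ub, against 68.8% of the whole H3K27me3 list, and 9 of them (75%) lay wholly inside it, against 31.4% of the list. In the other direction 7 of the 23 H2AK119ub regions (30.4%) met H3K27me3, against 33.8% of the H2AK119ub list. Most of the 12 H3K27me3 regions lay at the lipoxygenase loci of chromosome 11, where H2AK119ub covered 94.7% to 98.1% of each window. They are therefore not separate cases to set against the list. The median width in the windows was 18.6 kb for H2AK119ub (8.09 kb over the list) and 7.55 kb for H3K27me3 (8.43 kb over the list).

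Other genes of lipid synthesis and transport, 82 genes in 6 lists, had H2AK119ub over the body at 66 (80.5%) and H3K27me3 at 17 (20.7%), against 57.2% and 25.7% of all genes. Among 8 other lipoxygenase and epoxide genes, all 8 had H2AK119ub and 5 had H3K27me3. Beside Alox15, Alox12e and Alox5 these were Ephx4, a predicted epoxide hydrolase gene (4.99 kb), and Alox5ap, whose product presents arachidonate to ALOX5 (2.25 kb). H2AK119ub was longest in Ephx1 (21.9 kb) and Alox5ap (21.7 kb).

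Of 20 ceramide and sphingolipid enzyme genes, 17 had H2AK119ub and 3 had H3K27me3 over the body. These 3 were Degs2, which makes phytoceramides (5.62 kb), Cers1, the ceramide synthase gene of neurons (2.75 kb), and Cers2 (0.108 kb). H2AK119ub was longest in the long genes Sgms1 (80.6 kb, 30.2% of the body) and Cers6 (33.3 kb, 13.1% of the body). Cers3 and the other 5 ceramide synthase genes thus all had H2AK119ub (57.2% of all genes), and 2 of the 6 had H3K27me3 (25.7% of all genes). This family and those below were gathered after the values had been seen.

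Of 18 genes of fatty acid elongation and activation, 17 had H2AK119ub and 3 had H3K27me3. Elovl2, which lengthens polyunsaturated fatty acids, had 35.7 kb of H3K27me3 over 94.0% of its body, Elovl3, an elongase gene of sebaceous glands and brown fat, was covered in full (3.80 kb), and the desaturase gene Scd2 had 1.02 kb. H2AK119ub was longest in Acsl1 (30.5 kb) and Elovl5 (29.1 kb). With Elovl4, 3 of the 7 elongase genes had H3K27me3 over the body (25.7% of all genes) and all 7 had H2AK119ub (57.2% of all genes). The H3K27me3 region at Elovl4 lay over the first part of the gene, where H3K27me3 at Elovl2 and Elovl3 covered nearly all of the body.

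Of 13 genes for acylceramide cofactors and lipases, 7 had H2AK119ub and 1 had H3K27me3, Pnpla5, with 0.034 kb. H2AK119ub was longest in Dgat2 (29.1 kb) and Pnpla3 (21.7 kb), while Lipk, Lipm and Lipn, the epidermal lipase cluster, had neither mark and were picked out after their values were seen. Of 12 genes for lipid transport and lamellar granules, 8 had H2AK119ub and 1 had H3K27me3, Abca4, the retinal transporter gene (3.89 kb). H2AK119ub was longest in Abca4 (80.4 kb) and Abcg1 (60.3 kb). Of 7 Abca genes 2, Abca12 and Abca13, had neither mark over the body, against 39.6% of all genes. Of 4 Cyp4f genes examined, Cyp4f39 among them, 3 had neither mark, 1 had H2AK119ub and 0 had H3K27me3 over the body. All 4 Pnpla genes examined had H2AK119ub and 1 had H3K27me3.

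Of 11 sterol and cholesterol sulfate genes, 9 had H2AK119ub and 4 had H3K27me3. H3K27me3 was longest in Nsdhl (26.8 kb) and Ebp (8.18 kb), which lie on X, and Srebf2 had 0.252 kb, and H2AK119ub was longest in Sult2b1 (28.4 kb). Across the 6 lists the share with H2AK119ub thus ran from 53.8% to 100% and that with H3K27me3 from 7.69% to 62.5%, with the highest shares of both in the list that holds lipoxygenase genes. None of these differences was tested.

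Protein genes of the cornified layer gave mixed counts. Of 8 transglutaminase genes, which crosslink the envelope, 6 had H2AK119ub and 3 had H3K27me3 over the body, at Tgm5 (32.8 kb), Tgm6 (18.0 kb) and Tgm2 (3.78 kb), and H2AK119ub was longest in Tgm3 (59.3 kb) and Tgm5 (36.8 kb). Of 20 cornified envelope genes, 13 had H2AK119ub and 2 had H3K27me3, at Krt10 (8.28 kb) and Lor (1.43 kb), and H2AK119ub was longest in Sbsn (23.5 kb) and Ppl (20.6 kb). Krt10 is the gene whose promoter drives the GFP reporter absent from the sorted cells. Krt1 and Krt2, the other keratin genes of this list, had H2AK119ub without H3K27me3 over the body. Krt5, Krt14 and the other 8 basal keratinocyte markers all had H2AK119ub over the body, and 1, Dst, also had H3K27me3 (31.5 kb, 7.85% of its body). For these lists too, the shares over all genes were 57.2% for H2AK119ub and 25.7% for H3K27me3. Region lists do not measure expression, so they cannot show which cells were sorted.

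**Figure D5:**
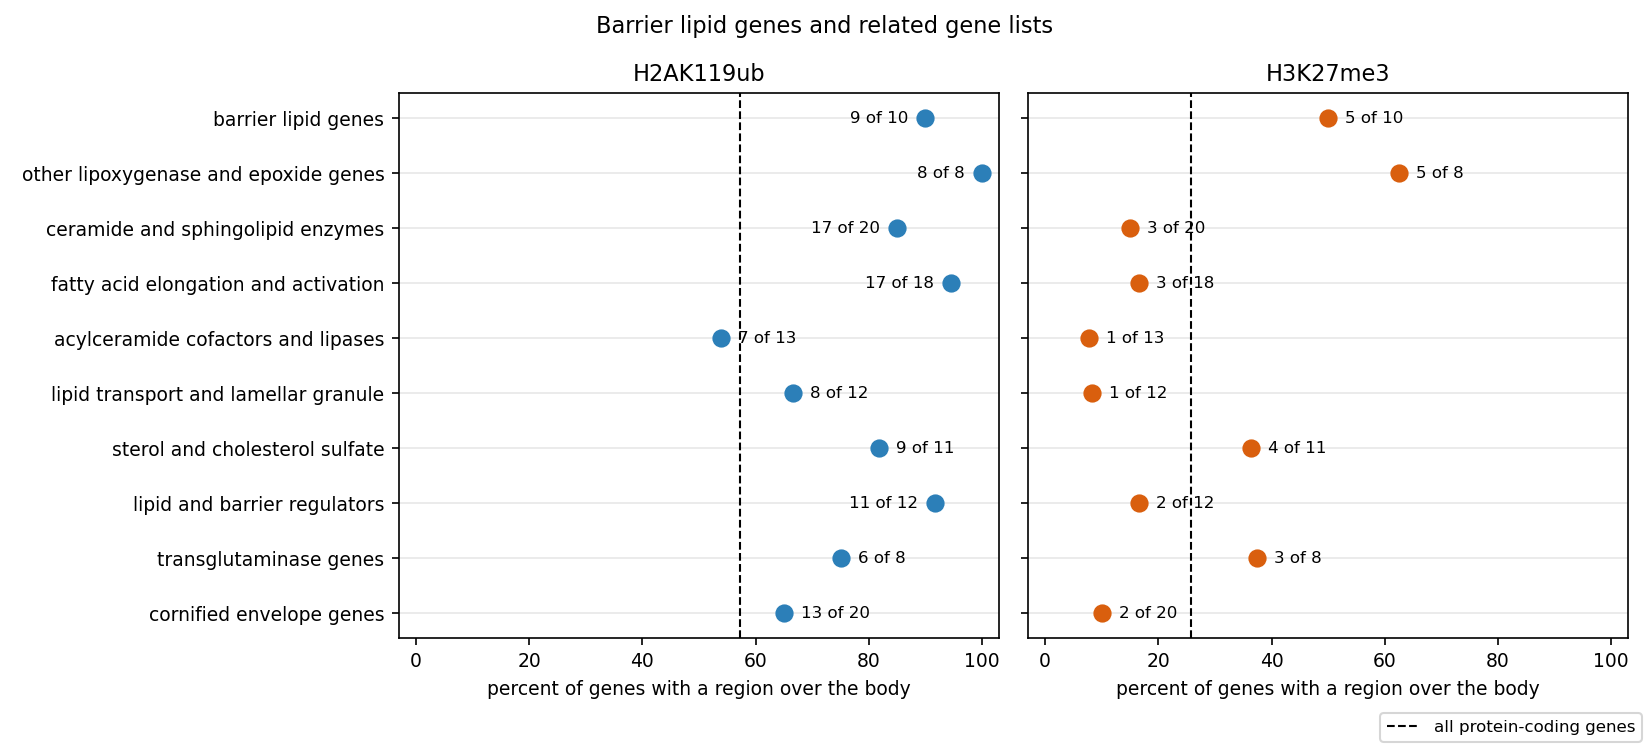
Percent of genes with a called region over the gene body (horizontal axis) for the 10 barrier lipid genes and 9 related lists, for H2AK119ub (left) and H3K27me3 (right), with counts beside the points and a dashed line for all protein-coding genes (57.2% and 25.7%). The barrier lipid genes stand at 9 of 10 and 5 of 10, and the ceramide and sphingolipid enzymes at 17 of 20 and 3 of 20.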

How the data were processed

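Per the labels' protocols, libraries were made from sorted basal epidermal progenitors and sequenced as single reads. Per the file headers, each deposited list gives only positions (chromosome, start, end), with no unit of height. The submitters' processing notes name Bowtie2 2.3.3.1, SAMtools 1.9 and mm10 but not how they were used. Which caller and thresholds were used, whether input was subtracted and whether libraries were pooled is not given in the sources used here, and these set how many regions were called and how wide. Heights and depths per library are not analysed here.

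Region starts were taken as 0-based and shifted by 1 bp. Genes and promoters came from RefSeq tables of GRCm38.p6, the same build. The gene table gives the outer ends of each gene without strand, so strand and start came from the promoter table, which has 9 of the 10 members. A mark was counted with an overlap of at least 1 bp with the gene body, the body plus 20 kb, or 1 kb on either side of a start. Where a gene has several promoter entries any start counted. Counts are set beside the same share over all protein-coding genes on 19 autosomes and X. No test was made, as there is 1 list per mark.

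The 10 members and the 14 other gene lists were chosen with earlier results of these data known. Of 157 entries in those lists, Sts had no row. All members are named, with the neighbours inside a member's window that share a region with it, and the lists' named genes are up to 4 with most H3K27me3 and 2 with most H2AK119ub over the body, except for a gene that is not reported here. The overlap code was checked on simulated regions. Python 3.11.15, pandas 2.3.3 and Matplotlib 3.10.9 were used. Other flanks, overlaps, widths, list sizes, joined gaps and start positions were tried.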

Additional observations from a re-analysis of the deposited data

How the results depend on the processing

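The counts of barrier genes with H2AK119ub, H3K27me3 or both, in the window and at the start, stayed within 1.5 times of the reported value under each alternative tried. With no flank or flanks of 5 kb or 10 kb, 5 genes had H3K27me3 instead of 7, because the regions near Cers3 and Pnpla1 lie beyond 15 kb. The share of all genes with H3K27me3 was then 25.7%, 32.6% and 37.4%, against 44.5% as reported, and with H2AK119ub, at 9 of the 10 barrier genes throughout, 57.2%, 64.9% and 67.9%, against 71.8%. With regions of 5 kb or wider, 6 barrier genes had H3K27me3, and the share over all genes was not computed for that rule. With a flank of 50 kb, 8 had H3K27me3, against 57.2% of all genes. H2AK119ub then reached 10 through Abca12, against 77.4% of all genes. Counting overlapping windows as 1 locus, an alternative chosen after seeing the data, gave 7 for H2AK119ub and 5 for H3K27me3, of 8 loci.

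The median share of a window covered by H2AK119ub was 76.1% with no flank, 65.6% with a flank of 50 kb, 76.2% with regions of 5 kb or wider and with equal list sizes, and 80.5% with gaps under 3 kb joined, against 78.5% as reported. For H3K27me3 it was 4.85% with no flank and 6.99% with a flank of 50 kb, against 10.6%, and did not change under the other 3 alternatives. On the autosomes alone, 71.5% of all genes had H2AK119ub over the window and 42.5% had H3K27me3. No paired analysis was possible because each mark has 1 list with no replicate column, and for the same reason no replicate could be left out. Depth per library is unknown, so the absence of a region, as at Abca12, has no limit of detection.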

Other observations

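Of 12 genes for regulators of lipid and barrier genes, 11 had H2AK119ub over the body and 2 had H3K27me3. Over all genes these shares were 57.2% and 25.7%. H3K27me3 was found in Pparg, the nuclear receptor gene of fat and sebaceous cells (11.2 kb, 8.63% of its body), and in Ovol1, an epidermal zinc finger gene (3.44 kb, 30.1% of its body). H2AK119ub was longest in the nuclear receptor genes Rxra (86.9 kb) and Ppard (63.8 kb), and Nr1h2, an oxysterol receptor gene, was the single gene with neither mark.

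Markers of other cell types in skin had H3K27me3 over the body at 5 of 5 Merkel cell genes, with the most in Isl1 (11.4 kb) and Krt20 (9.77 kb). The counts were 4 of 7 fibroblast genes, led by Twist2 (28.1 kb) and Pdgfra (24.0 kb), 2 of 7 melanocyte genes, Pax3 (95.9 kb) and Sox10 (9.58 kb), and 2 of 5 immune genes, Cd3e (10.9 kb) and Cd207 (6.65 kb). H2AK119ub was over the body at 5 of 5 Merkel cell, 4 of 7 fibroblast, 5 of 7 melanocyte and 4 of 5 immune genes. Of all genes, 25.7% had H3K27me3 and 57.2% had H2AK119ub over the body. The Merkel cell count for H3K27me3 includes Piezo2, which was covered over 1.56% of its body.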
